A study of Sus scrofa with 6 samples.

Results

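PGK1, PFKFB3, TPI1, GPI and GAPDH are 4 enzymes and 1 regulator of glycolysis. They were measured in pools of pig oocytes taken ahead of in vitro maturation and in pools matured in culture. They were chosen by name, as the glycolysis genes with the clearest decreases in an earlier reading of these same arrays, so their differences between the groups are given below as a description and without a test. Each of the 5 genes was represented by 1 probe, and these are 5 of 12258 probes on the array and 5 of 9828 named genes. The PGK1 probe carries its symbol written more than once in the annotation with a single gene identifier, and it was counted as a probe of PGK1 alone.

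Total RNA came from 6 pools of 50 oocytes of pubertal crossbred Landrace gilts, 3 pools before and 3 after maturation, each measured on its own Affymetrix array. The group before maturation is called in vivo in the sample titles and was described as taken ahead of maturation. The matured group had been kept as cumulus-oocyte complexes, that is oocytes still enclosed in their somatic cumulus cells, for 44 h at 38 °C under 5% CO2. Their medium held 0.1 mg/ml sodium pyruvate, 10% porcine follicular fluid, 2.5 IU/ml hCG and 2.5 IU/ml eCG. The labels name no genetic change in either group. Whether cumulus cells were stripped before the RNA was taken is not given in the sources used here, and a dye test (BCB) named in the design text is not assigned to single samples. The effects of maturation and of the culture itself cannot be told apart, because the first group was not cultured.

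Glycolysis splits glucose into pyruvate in the cytosol and yields ATP and NADH on the way. In the ovarian follicle the oocyte itself takes up little glucose, and the cumulus cells around it break glucose down and pass pyruvate and lactate to it through gap junctions and the surrounding fluid. The rate is set mainly at the hexokinase and phosphofructokinase steps, and the PFKFB enzymes govern the latter by making or removing its strongest allosteric activator.

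PFKFB3, the member of the PFKFB family with the highest kinase over phosphatase activity and so a driver of glycolysis, was lower in every matured pool. Its log2 expression level was 6.45, 6.93 and 7.31 in replicates 1, 2 and 3 before maturation, and 5.37, 4.93 and 5.04 after it. The groups did not overlap, and the highest matured pool lay 1.08 below the lowest pool before maturation. The mean was 6.90 ± 0.43 before and 5.11 ± 0.23 after maturation (SD over 3 arrays, as for every mean below). The log2 difference was -1.79 with a standard error of 0.21, a 3.45-fold lower level. After maturation PFKFB3 lay above the lower quartile of all probes on each array (4.33 to 4.45) and under the array medians (5.62 to 5.64). Background was not assessed, so the fold of this dimmer gene is not exact.

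GPI, which interconverts glucose phosphate and fructose phosphate directly ahead of the phosphofructokinase step, showed the tightest values after maturation. Its log2 levels were 9.55, 9.85 and 9.97 before maturation and 8.84, 8.90 and 8.88 after it. The 3 matured pools spanned only 0.06 on the log2 scale, against 0.41 for the 3 pools before maturation. The difference of the means was -0.91 with a standard error of 0.12, a 1.88-fold lower level.

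TPI1 interconverts the pair of triose phosphates that aldolase makes and so brings both into the later steps. Its log2 levels were 9.94, 10.09 and 10.20 before maturation, and 9.01, 8.88 and 9.19 after it. The lowest pool before maturation stood 0.75 above the highest matured pool. The mean went from 10.08 ± 0.13 to 9.03 ± 0.15, a difference of -1.05 with a standard error of 0.12 and a 2.07-fold lower level.

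GAPDH oxidises the triose phosphate, reduces NAD and is widely used as a reference gene for normalization. Its log2 levels were 10.91, 11.22 and 11.28 before maturation, and 10.29, 10.05 and 10.42 after it. The gap between the groups was 0.49, the smallest of the 5 genes. The mean went from 11.13 ± 0.20 to 10.25 ± 0.19, a difference of -0.88 with a standard error of 0.14 and a 1.84-fold lower level. GAPDH has many processed pseudogenes in mammals, and whether its probe also takes up signal from near-identical copies was not tested.

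PGK1, which makes the first ATP of the pathway directly after the GAPDH step, had the largest difference of the 5 genes. Its log2 levels were 7.99, 8.26 and 8.87 before maturation, and 6.65, 6.05 and 6.45 after it. The groups stood 1.34 apart, although the pools before maturation alone ranged over 0.87. The mean went from 8.37 ± 0.45 to 6.38 ± 0.31, a difference of -1.99 with a standard error of 0.23, or a 3.97-fold lower level. Ordered from the largest decrease among all 12258 probes, PGK1 held place 97, PFKFB3 place 118, TPI1 place 372, GPI place 452 and GAPDH place 486.

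**Figure D1:**
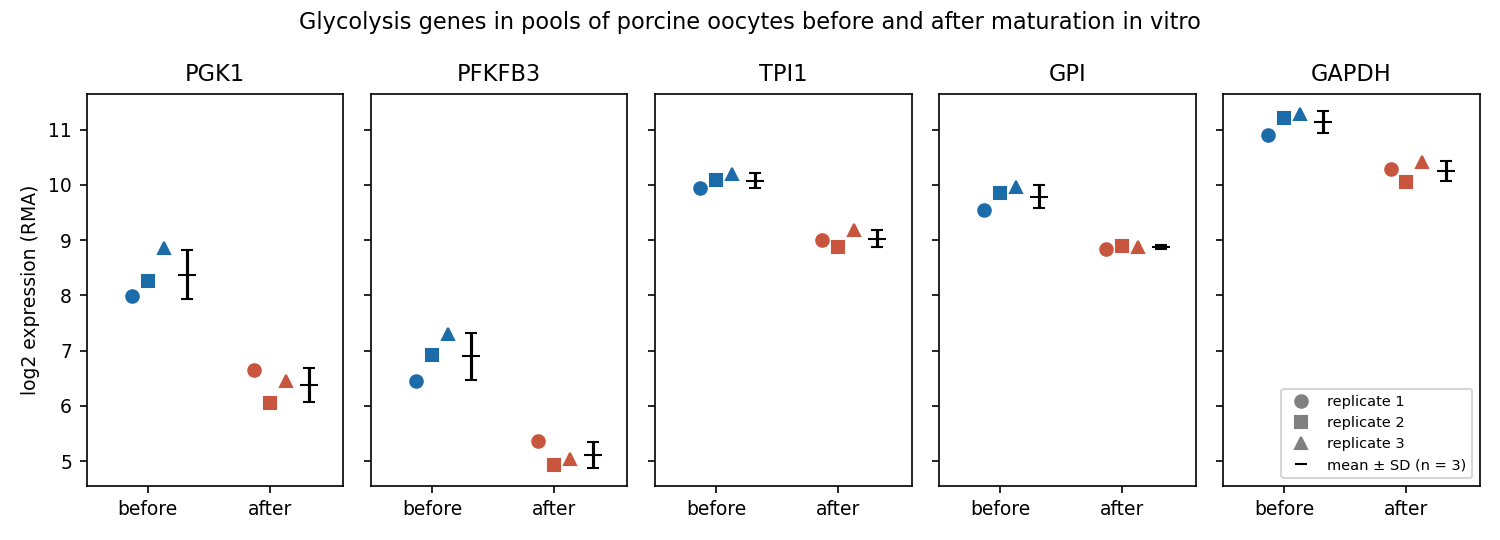
Log2 expression (RMA) of the 5 glycolysis genes on each array, with replicate numbers as symbols, pools before maturation in blue and after it in red, and the mean ± SD of 3 arrays beside them. In each panel the 3 matured pools lie below the 3 pools before maturation, with the widest gap for PGK1 (1.34) and the narrowest for GAPDH (0.49).

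For all 5 genes the 3 matured pools lay below the 3 pools before maturation, a pattern shown by 14.4% of all probes, while 21.7% of all probes had the matured pools above the others. The genes were chosen on this very contrast, so nothing is read from that count. Before maturation replicate 3 was the highest pool and replicate 1 the lowest for each of the 5 genes. The share of all probes with this order was not counted, so nothing is read from it. PKM, LDHA and PDHB had the same order, and PFKP and PGD had the reverse one. Genes of unrelated lists also had the same order (P4HA1, FST, SERPINE2 and HSD17B1) or the reverse one (NOBOX and SLC38A3). All of these are examples and not a count. The matured pools showed no such common order. Replicate 2 was the lowest for PGK1, PFKFB3, TPI1 and GAPDH, and the highest for GPI.

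The size of the decrease divided the genes into PGK1 and PFKFB3 on one side and TPI1, GPI and GAPDH on the other. Brightness before maturation divided them the same way. PGK1 and PFKFB3 stood at percentiles 80.4 and 63.4 of all probes, and TPI1, GPI and GAPDH at 95.3, 93.4 and 99.2. Whether the signal level bears on the size of the decrease was not tested. Relative to GAPDH on the same array, the log2 level of PGK1 was -2.91, -2.96 and -2.41 before maturation and -3.64, -4.00 and -3.97 after it, a further difference of -1.11. PFKFB3 relative to GAPDH was -4.46, -4.29 and -3.97 before and -4.92, -5.12 and -5.38 after maturation, a difference of -0.90. For PGK1 and PFKFB3 the groups therefore stayed apart when GAPDH was used as the reference within each array. GPI relative to GAPDH was -1.36, -1.37 and -1.31 before and -1.45, -1.14 and -1.54 after maturation. These values overlapped, and their means differed by -0.03. TPI1 relative to GAPDH differed by -0.17, from -1.06 ± 0.08 to -1.22 ± 0.06, without overlap between the groups. PGK1 relative to PFKFB3 differed by -0.20 with overlapping groups, from 1.48 ± 0.13 to 1.27 ± 0.15. A level relative to another gene shows unequal change and does not show that either gene kept its level.

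**Figure D2:**
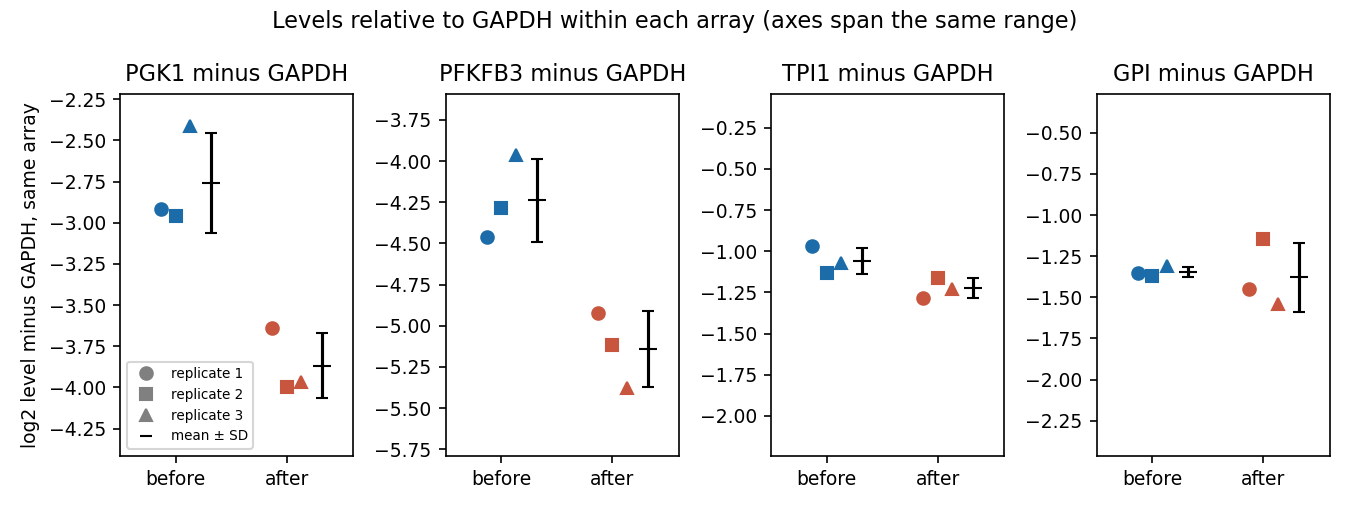
Log2 level of PGK1, PFKFB3, TPI1 and GPI minus that of GAPDH on the same array, with replicate numbers as symbols and the mean ± SD of 3 arrays. Axes span the same range, and PGK1 and PFKFB3 separate by -1.11 and -0.90 while GPI overlaps (-0.03).

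The 5 differences were negative under each scaling of the arrays that was tried, except that GAPDH has no difference of its own where it is held level. Their size changed with the scaling. Holding 38 ribosomal protein genes level adds 0.49 to every log2 difference, holding 14 reference genes level adds 0.33 and holding GAPDH level adds 0.88. The 0.33 is a mean over the 14 reference genes, which ranged from -1.62 to 0.28 with a median of -0.14. It thus rests on the larger decreases among them. With the ribosomal protein genes level PGK1 differed by -1.50 and PFKFB3 by -1.30, against -0.56 for TPI1, -0.43 for GPI and -0.39 for GAPDH. With GAPDH level TPI1 and GPI came to -0.17 and -0.03, as in the values relative to GAPDH above. When each array was left out in turn PGK1 ranged from -2.18 to -1.74, PFKFB3 from -2.01 to -1.58, TPI1 from -1.13 to -0.98, GPI from -1.03 to -0.83 and GAPDH from -0.99 to -0.78.

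**Figure D3:**
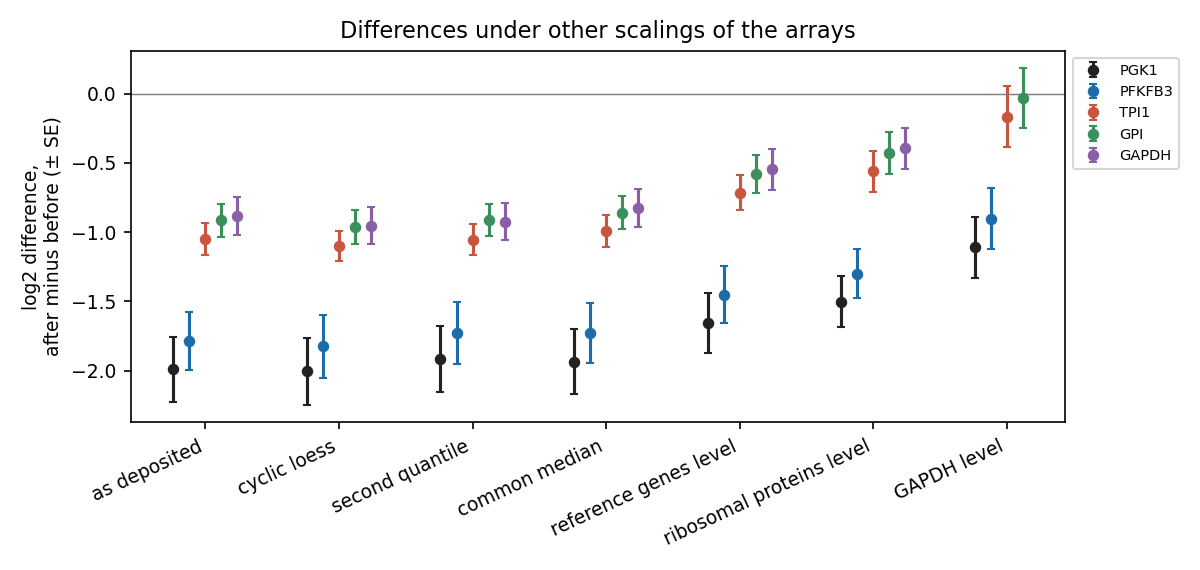
Log2 difference after minus before maturation of the 5 genes, with its standard error, on the deposited scale and under 6 other scalings. PGK1 and PFKFB3 lie below the other genes in each column, and TPI1 and GPI come close to 0 only where GAPDH is held level (GAPDH itself is 0 there by construction and is not drawn).

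The other enzymes of the pathway had values on both sides of 0. Of 29 glycolytic enzymes listed, 18 were measured, and 14 of these were not among the genes chosen. At an adjusted p under 0.05 by limma over all probes, 1 of the 14 was lower after maturation, 2 were higher and 11 were not called, where 8.07% of all probes were called lower and 3.21% higher. With the replicate number as a block 3 of the 14 were called lower (HK1, PKM and LDHA) and 2 higher. The median log2 difference of the 14 genes was -0.0013, against 0.08 for all probes. The genes chosen were the larger decreases of the pathway, so the 14 others are what that choice left over. Of all calls 71.5% were decreases, against 59.2% after a second quantile normalization, 49.3% with a common median, 7.51% with reference genes level, 4.98% with ribosomal protein genes level and 2.12% with GAPDH level. The 6 pools are labelled as biological replicates, but the animals behind each pool are not stated, so the p-values measure the spread between these pools.

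At the hexokinase step, where glucose is trapped by phosphorylation, members of the family went in opposite directions. HK1, the widespread form, fell by 0.70 (standard error 0.18, limma adjusted p = 0.0389), from 7.07 ± 0.32 to 6.37 ± 0.23. Its value turned positive with GAPDH level (0.18), and the call was lost without replicate 1 or 2 after maturation and without replicate 1 or 3 before it (adjusted p up to 0.138). HKDC1, a further hexokinase family member, rose by 1.16 (adjusted p = 0.0141). It stood at 3.90, 3.85 and 3.87 before maturation, under the lower quartile of each array, and at 5.63, 4.73 and 4.74 after it, so its fold is not exact and replicate 1 lay well above the other matured pools. The call held without any single array (adjusted p of 0.00457 to 0.0424) and ended only in a test against a 1.5-fold change. HK2, the insulin-regulated form, had a difference of -0.26 (adjusted p = 0.126), positive with ribosomal protein genes, reference genes or GAPDH level, and HK3 one of -0.06.

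Among the enzymes of the middle of the pathway that were not chosen, only PGAM2 was called. PFKP, the platelet form of phosphofructokinase and the only subunit measured, differed by 0.05, with a 95% interval of -0.38 to 0.47. ALDOC, the brain form of aldolase, differed by -0.08 (-0.63 to 0.46). A difference as large as that of GAPDH lies outside each interval. GAPDHS, the sperm form of GAPDH, differed by 0.07 (-0.21 to 0.34). PGAM2, the muscle phosphoglycerate mutase, rose by 0.36 (adjusted p = 0.0461), and this call was lost without each of the 6 arrays in turn (adjusted p of 0.0582 to 0.139). ENO3, the muscle enolase, differed by 0.0031.

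At the lower end, PKM and LDHA pointed the same way as the genes chosen but did not pass the test. PKM, the pyruvate kinase of most tissues, stood at 9.58, 10.31 and 10.43 in the pools before maturation and at 9.12, 9.37 and 9.57 in the matured ones. Its difference was -0.75 (95% interval -1.26 to -0.25, adjusted p = 0.0645). LDHA, which reduces pyruvate to lactate, stood at 10.10, 10.41 and 10.88 in the first group and at 9.68, 9.91 and 9.96 in the matured pools, a difference of -0.62 (-1.05 to -0.19, adjusted p = 0.0715). The matured pools lay below the others for both genes, for PKM by only 0.0085 between the nearest pools. Both were called lower without replicate 1 before maturation (adjusted p = 0.00424 and 0.0184), and both were called lower with the replicate number as a block (adjusted p = 0.00644 and 0.0167). Both had positive values with GAPDH level. LDHC, the germ cell form of lactate dehydrogenase, differed by -0.01 (-0.33 to 0.31). LDHB and PKLR differed by 0.13 and 0.26, and lay under the lower quartile on each array before maturation.

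Among 7 other regulators PRKAA1, a catalytic subunit gene of the energy sensor AMPK, was the only one called. It fell by 0.97 (adjusted p = 0.0166), from 6.23 ± 0.43 to 5.26 ± 0.09, and lost the call with GAPDH level and without replicate 1 or 2 after maturation. The other PFKFB genes stayed within smaller differences than PFKFB3: PFKFB4 had -0.28 (adjusted p = 0.0931), PFKFB2 -0.23 and PFKFB1 0.12. That contrast with PFKFB3 is a description, since PFKFB3 was chosen for its decrease. HIF1A, the oxygen-regulated transcription factor gene that drives many glycolysis genes, had a difference of -0.41 (adjusted p = 0.0856). It was called lower with cyclic loess and with trend and robust set, and its value was positive with ribosomal protein genes or GAPDH level. PRKAA2 and MYC had -0.61 and -0.35, and PRKAA2 was called with the replicate block (adjusted p = 0.0269).

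**Figure D4:**
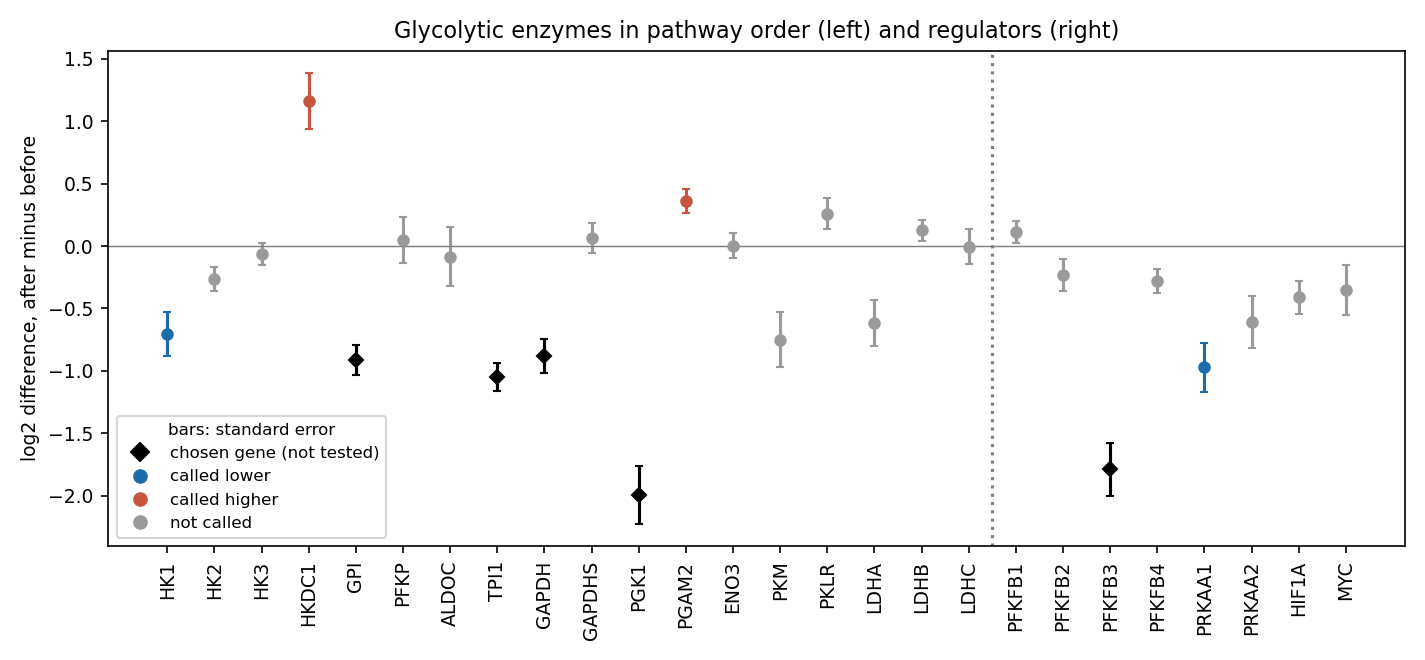
Log2 difference after minus before maturation with its standard error for the 18 measured glycolytic enzymes in pathway order and 8 regulators. The 5 chosen genes are black diamonds from -0.88 to -1.99, HK1 and PRKAA1 are called lower (blue), HKDC1 and PGAM2 higher (red), and the remaining genes are not called (grey).

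Entry of glucose and exit of lactate were covered by 11 of 20 listed genes, of which 1 fell and 0 rose, against 8.07% and 3.21% of all probes. The gene that fell was TXNIP, which restrains glucose uptake and is itself induced by glucose. It fell by 1.49 (adjusted p = 0.000263), from 9.86 ± 0.13 to 8.37 ± 0.22, and was called under each alternative tried. SLC16A8 and SLC16A1, monocarboxylate transporter genes, had differences of 0.37 and 0.21 without passing the test (adjusted p = 0.0832 and 0.205).

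The step from pyruvate to the citric acid cycle held 4 decreases among 11 measured genes and 0 increases, where 8.07% of all probes were called lower and 3.21% higher. PDK4 and PDK1, kinase genes whose products switch off pyruvate dehydrogenase, fell by 2.05 and 0.68 (adjusted p = 0.000771 and 0.00918). DLD, the shared lipoamide dehydrogenase subunit, fell by 0.66 (adjusted p = 0.0234), and PC, which carboxylates pyruvate to oxaloacetate, fell by 0.43 (adjusted p = 0.0213). PDK4 was called lower under each alternative tried. PDK1, DLD and PC had positive values with GAPDH level, and PC also with ribosomal protein genes level. DLD and PC lost the call without any single matured array, and PC also without replicate 2 or 3 before maturation. PDK4 after maturation lay close to the lower quartiles, at 4.28 ± 0.38. In the citric acid cycle itself 1 of 12 measured genes fell, close to the 8.07% of all probes. This was IDH3B, which fell by 0.59 (adjusted p = 0.00792), and CS, the citrate synthase gene, had a difference of 0.24 (adjusted p = 0.139). IDH3B had a positive value with GAPDH level.

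In the branches that leave glycolysis the calls on the deposited scale were all decreases, where 8.07% of all probes were called lower and 3.21% higher. In the pentose phosphate pathway 1 of 7 measured genes fell, PGLS by 0.65 (adjusted p = 0.00515), which turned positive with GAPDH level, and PGD differed by 0.09. Among 7 genes of hexosamine and hyaluronan precursor synthesis PGM3 and UAP1 fell by 0.43 and 1.08 (adjusted p = 0.0228 and 0.0460), while GFPT1, the entry enzyme of that branch, differed by 0.03. PGM3 and UAP1 each lost the call without any single matured array, without replicate 2 before maturation and after a second quantile normalization, and UAP1 also with cyclic loess. PGM3 also lost it with trend and robust set, and PGM3 was positive with ribosomal protein genes or GAPDH level. Among 11 glycogen genes PYGL, the liver glycogen phosphorylase, fell by 1.15 and the phosphorylase kinase subunit gene PHKA1 by 0.71 (adjusted p = 0.00471 and 0.0256). PHKA1 lost the call without any single matured array and was positive with GAPDH level. PHKA2, of the same list, had a difference of 0.44 without a call (limma adjusted p = 0.0769). It was called higher with the replicate block, after a second quantile normalization and with a common median. Of 7 gluconeogenesis genes 0 were called by limma, and with the replicate block PCK2 and PCK1, which feed carbon back towards glucose, were called higher (0.44 and 0.39, adjusted p = 0.0300 and 0.0468, against 0.0715 and 0.0844 without it).

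Hypoxia-inducible genes outside glycolysis, which share the HIF transcription factors with PGK1, GAPDH, TPI1, GPI and PFKFB3, held 3 decreases among 12 measured genes and 0 increases, where 8.07% of all probes were called lower and 3.21% higher. Their median difference was -0.20, against 0.08 for all probes. ANGPTL4, a secreted lipase inhibitor, fell by 2.45 (adjusted p = 0.00014), from 8.22 ± 0.40 to 5.77 ± 0.16. P4HA1, a collagen prolyl hydroxylase subunit gene, fell by 1.61 (adjusted p = 0.00177), and ADM, the adrenomedullin gene, fell by 0.59 (adjusted p = 0.0223). ANGPTL4 and P4HA1 were called under each alternative tried. ADM lost the call without any single matured array and without replicate 3 before maturation, and was positive with GAPDH level. The other 9 genes were not called on the deposited scale. EPO, CA9, MXI1, KDM3A and LOX differed by 0.20, 0.16, 0.13, 0.10 and 0.09. BNIP3L differed by -0.0057, and ERO1A, DDIT4 and TFRC by -0.45, -0.41 and -0.39. BNIP3L and CA9 were bright in both groups. LOX and EPO were dim, at 4.25 and 4.71 before maturation and 4.34 and 4.92 after it. LOX lay under the lower quartile on 2 arrays before maturation and 1 after it, so its small difference says little.

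GAPDH was not the only common reference gene with lower values after maturation. Of 14 other reference genes measured, 4 fell and 0 rose, against 8.07% and 3.21% of all probes. The decreases were H2AZ1 by 1.62, GUSB by 1.08, TUBA1B by 0.70 and ACTB by 0.50 (adjusted p = 0.00100, 0.00135, 0.00142 and 0.0136). The median difference of the 14 was -0.14. TUBA1B and ACTB were positive with GAPDH level, and ACTB lost the call without replicate 2 after maturation. PPIA and HPRT1 had small differences, 0.02 (-0.26 to 0.30) and 0.12 (-0.08 to 0.32). With GAPDH held level on every array 11062 probes were called higher and 240 lower, against 394 and 989 on the deposited scale. EEF1A1 and YWHAZ lay under the lower quartile on all 6 arrays, so these probes say little about their genes.

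**Figure D5:**
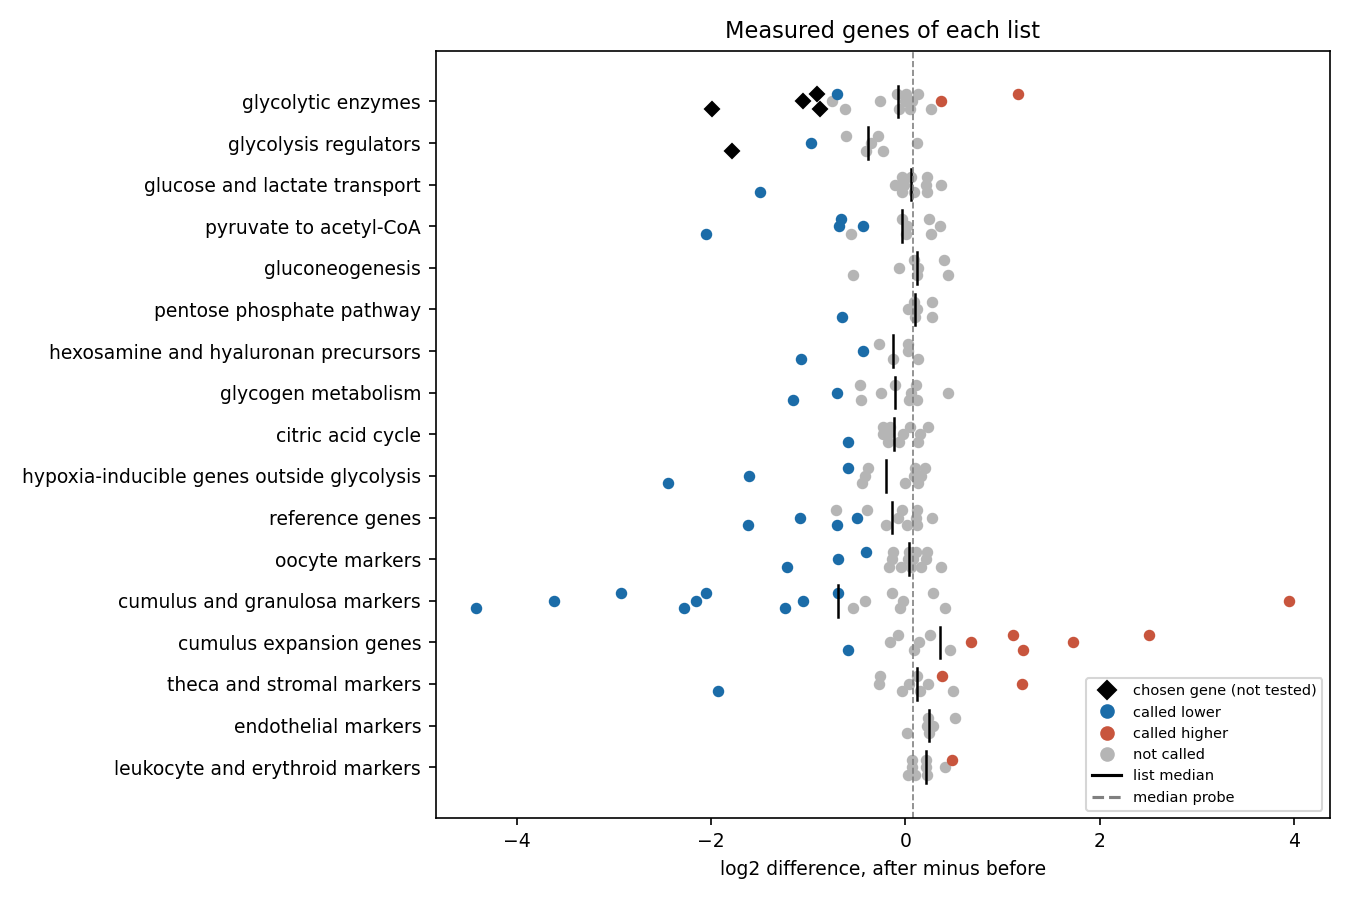
Log2 difference after minus before maturation of the measured genes of each list, with the list's median as a black bar and the median probe as a dashed line (0.08). The 5 chosen glycolysis genes (black diamonds) stand at the lower edge of their lists, and cumulus and granulosa markers have a median of -0.69.

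Of 17 measured cumulus and granulosa markers, which stand for the somatic follicle cells, 9 fell and 1 rose, where 8.07% of all probes were called lower and 3.21% higher. The marker that rose was HSD3B1, a steroid-making enzyme gene, by 3.95, and the list's median difference was -0.69. The gap junction gene GJA1 fell by 2.27 (adjusted p = 2.45e-05). The summed level of the 17 markers, on the linear scale, ran from 6598 to 8687 before maturation and from 2347 to 2668 after it. A linear sum weighs bright genes most. The brightest before maturation were GJA1 (10.91), INHBA (10.28), FST (10.11), SERPINE2 (9.81) and HSD17B1 (9.58), all called lower. The 7 markers without a call were dimmer than these before maturation (means of 4.94 to 7.86) and count less in the sum there. After it ESR2, NR0B1 and SLC38A3 (7.79, 7.72 and 7.62) stood above SERPINE2 (6.89) and HSD17B1 (5.16). The 7 are therefore a larger part of the smaller sum after maturation, and their differences ran from -0.54 (LHCGR) to 0.41 (SLC38A3). In replicates 1, 2 and 3 before maturation the sum was 6598, 7277 and 8687, and the share of all probes with that order was not counted. No marker of this list was under the lower quartile on all arrays before maturation, and 1 was so after it. The summed level of 16 oocyte markers ran from 30743 to 33062 before maturation and from 28987 to 29969 after it, with 3 called lower (KIT, ZP3 and ZP4) and 0 higher. The call of ZP4 was lost without each of the 6 arrays in turn and with a common median. The oocyte growth factor genes GDF9 and BMP15, which mark the labelled cell type, were bright in both groups and differed by 0.06 and 0.11 (adjusted p = 0.681 and 0.395). Of 12 cumulus expansion genes 5 were called higher and 1 lower, but 8 of the 12 lay under the lower quartile on every array before maturation. Of the other marker lists, theca and stromal genes had 1 lower and 2 higher of 11, endothelial genes 0 of 6, and leukocyte and erythroid genes 1 higher of 9. Besides ZP4, some marker calls were unstable in the 6 fits with 1 array left out. NR5A2, PTX3, COL3A1 and CD3E kept theirs in 1 fit, POSTN in 2, VCAN in 3 and AMH in 5. The remaining marker calls held in all 6. Fewer cumulus cells in a pool and less of these RNAs per cell cannot be told apart here, and the part of the cumulus markers in the values of the 5 genes was not tested.

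TPI1 and GAPDH lie near each other on the same chromosome of the RefSeq assembly Sscrofa11.1, with 18 protein-coding genes between them, whereas PGK1, PFKFB3 and GPI lie on other chromosomes. Of these 18 genes 14 were measured, and 1 of them was called lower and 0 higher, close to the 8.07% of all probes called lower. The gene called was ZNF384, a zinc finger gene, which fell by 0.85 (adjusted p = 0.0131) and was named after its value was seen.

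The genes whose values over the 6 arrays ran most like each chosen gene were found by Pearson's r over all named genes. The closest to PGK1 was CTSV (r = 0.999), a lysosomal protease gene, followed by KIF16B, IVNS1ABP, TTC28 and RPS27. The closest to PFKFB3 was KCTD6 (r = 0.999), followed by KIF16B, CTSV, LYSMD3 and METAP1. TPI1 ran most like MIGA1 (r = 0.997), REEP3, DAD1, CCND2 and TBXAS1, and GPI most like IKZF2 (r = 0.999), B4GAT1, PHOSPHO2, MCOLN3 and GATA6. GAPDH ran most like TMEM126A (r = 0.998), ATIC, PAPD4, MFSD3 and UBE3A. The mean of the 5 genes ran most like ESR1 (r = 0.998), the oestrogen receptor alpha gene and a granulosa marker, followed by CALR, IGSF11, KIF16B and CAPRIN1. These values describe 6 arrays that fall into 2 groups, and 355 named genes had an r over 0.95 with that mean, so the order among the closest genes is loosely set.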

How the data were processed

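The deposited table holds log2 expression values of 12258 probes on 6 arrays, made by the authors with RMA, per the submitters' processing notes. Its version, settings and any filter on probes are unstated (not given in the sources used here), and the log2 scale was read from the use of RMA and from the values. Per the labels' protocols 100 ng of RNA per pool went through 2 rounds of amplification. Arrays have no read depth, and their number limits the precision. Detection calls were not used here.

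Of the probes 10715 had a single gene symbol in the platform annotation, 207 had 1 symbol written more than once, 268 had several and 1068 had none listed. Symbols were updated by gene identifier to RefSeq names (assembly Sscrofa11.1), which gave 9828 named genes, with the brightest probe for the 49 genes with more than 1. Chromosomes and gene order came from the RefSeq table of that assembly. No sequences were used.

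The matured and unmatured arrays were compared probe by probe with limma 3.58.1 (R 4.3.3) as a two-sided moderated test, and a gene was called at a Benjamini-Hochberg adjusted p under 0.05 among all 12258 probes. In simulated data of the same 12258 probes it called 40 of 40 probes at a log2 change of -2, 39 of 40 at -1, 15 of 40 at -0.5, and 19 of 12058 unchanged ones. Normal noise was drawn there independently for each probe and array. Shifts shared by the probes of an array or by a replicate number were not simulated, so these counts do not cover them. The 5 genes, the gene lists and the rule for named genes were chosen with earlier results of these data known. Named genes are the 5, all measured glycolytic enzymes and regulators, the called genes of the other lists (up to 6 by smallest p, or the 2 smallest), fixed genes, and the 5 most similar genes to each. Some further list genes are named beside these, chosen after their values were seen. Marker lists are given mainly by counts, and list genes not named were left out for brevity. Among the fixed genes, SLC2A1, SLC2A3, SLC16A3, TKT, GFPT2 and VEGFA were not matched to a probe with 1 symbol. Alternatives were the replicate block, 6 scalings, a filter on the dimmest 25% of probes, trend and robust set, a test against a 1.5-fold change, and leaving out each array. Deviations from the group means correlated between arrays with the same replicate number (0.283, 0.120 and 0.142). Between arrays with unlike numbers the correlations ran from -0.168 to 0.0191. Deviations cancel out within each group of 3 arrays, so these values are not independent of one another. Whether the numbers pair the arrays was not tested, and the labels only call the pools biological replicates. The main fit carried no block. Tables and figures used Python 3.11.15, pandas 2.3.3 and matplotlib 3.10.9.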

Additional observations from a re-analysis of the deposited data

How the results depend on the processing

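The 5 differences stayed negative in each alternative tried, leaving out GAPDH where it is held level. Their size moved beyond the spread between replicates with ribosomal protein genes level (PGK1 -1.50, PFKFB3 -1.30, TPI1 -0.56, GPI -0.43, GAPDH -0.39), with GAPDH level (PGK1 -1.11, PFKFB3 -0.90, TPI1 -0.17, GPI -0.032) and with reference genes level (TPI1 -0.71, GPI -0.58, GAPDH -0.55). These scalings add 1 constant to every probe's difference by construction. The 14 enzymes that were not chosen had 1 lower call on the deposited scale, 3 with the replicate block, 3 with trend and robust set, 2 without the dimmest probes and 0 to 2 with 1 array left out. It was 0 after a second quantile normalization, with ribosomal protein genes, reference genes or GAPDH level, and against a 1.5-fold change. The count over all 18 enzymes holds 4 genes chosen for their decrease and is no test: it was 5 on the deposited scale, 7 with the replicate block, 1 with GAPDH level, 1 against a 1.5-fold change and 4 to 6 with 1 array left out. Over all probes 394 were called higher on the deposited scale, 621 with the replicate block, 596 with quantile normalization run again, 254 with cyclic loess, 915 with medians made equal, 9740 with ribosomal protein genes level, 8409 with reference genes level, 11062 with GAPDH level and 27 against a 1.5-fold change. The count called lower was 989 on the deposited scale, 511 with ribosomal protein genes level, 240 with GAPDH level and 222 against a 1.5-fold change. With 1 array left out the counts ran from 103 to 434 higher and from 531 to 1013 lower. Leaving out matured replicate 1 gave 531 lower and 103 higher, matured replicate 2 gave 545 lower and 119 higher, and matured replicate 3 gave 204 higher. Leaving out replicate 2 of the first group gave 258 higher, and its replicate 3 gave 166. Apart from the calls named above, the replicate block changed those of PGM1, RPL4 and B2M (lower) and of PHKA2, DCN and SOX17 (higher), and no other call among the listed genes. Of the metabolic, hypoxia-inducible and reference genes called lower, the 5 chosen genes not counted, TXNIP, PDK4, ANGPTL4, P4HA1 and H2AZ1 were called in each alternative, and each of the others lost the call with GAPDH level and against a 1.5-fold change, the cause not tested. No glycolysis or other metabolic gene listed had more than 1 probe, so averaging probes was not run. What limits these values is the number of arrays, an unassessed background for dim probes, and a scale on which a shift common to all RNAs cannot be seen.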
